A study of Mus musculus with 12 samples.

Results

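Metallothioneins are small, cysteine-rich proteins that bind zinc and copper, and Mt1 and Mt2 are the forms most tissues make. They were followed here with Mtf1, which encodes the metal-sensing transcription factor MTF-1, and Slc30a1, which encodes the zinc exporter ZnT1 of the plasma membrane. These 4 genes were taken by name from the 35453 rows of the mRNA table, and all 4 were among the 14098 genes tested. The samples were 4T1 tumours, a mouse mammary carcinoma line grown in Balb/c mice, removed 35 days after inoculation. In the stress group (3 mRNA libraries) the mice were held in restraint for 2 hours daily over 28 days, and the mice of the control group (3 mRNA libraries) were left untreated. No other agent or allele is named for either group. The labels do not state whether each library came from a different mouse, so p-values measure the spread between these libraries. Another 6 libraries of miRNA were not analysed here.

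MTF-1 is activated when free zinc rises in the cell and then binds short metal response elements in the promoters of Mt1, Mt2 and Slc30a1. Metallothionein takes up the metal while the exporter moves zinc out, so zinc itself raises both kinds of transcript. In mice Mt1 and Mt2 also respond to glucocorticoid hormones, to IL-6 acting through STAT3, to oxidative stress and to hypoxia, and both are classical stress-responsive genes of the liver.

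In GENCODE M21 on GRCm38 (mm10), Mt2 (chromosome 8, 94172664 to 94173568, plus strand) and Mt1 (chromosome 8, 94179082 to 94180327, plus strand) lie next to each other, with their start sites 6.42 kb apart. Slc30a1 is on the plus strand of chromosome 1 (191906767 to 191913247) and Mtf1 on the plus strand of chromosome 4 (124802104 to 124849800). The promoters of the metallothionein pair are shown because they carry the core of the metal response element, which the window of Mtf1 does not. They come from RefSeq (GRCm38.p6, C57BL/6J strain), 5′ to 3′ on the plus strand, from 250 bases before to 30 after the RefSeq start, as chr8:94178839-94179118 for Mt1 and chr8:94172368-94172647 for Mt2. Capitals mark each match to the 7-letter cores TGCACNC or TGCGCNC on either strand; no match overlapped another.
Mt1: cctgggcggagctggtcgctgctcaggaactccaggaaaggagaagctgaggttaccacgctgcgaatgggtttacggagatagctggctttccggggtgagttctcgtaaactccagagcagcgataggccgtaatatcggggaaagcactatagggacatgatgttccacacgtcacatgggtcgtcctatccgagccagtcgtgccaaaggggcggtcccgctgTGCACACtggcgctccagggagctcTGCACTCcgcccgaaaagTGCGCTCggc
Mt2: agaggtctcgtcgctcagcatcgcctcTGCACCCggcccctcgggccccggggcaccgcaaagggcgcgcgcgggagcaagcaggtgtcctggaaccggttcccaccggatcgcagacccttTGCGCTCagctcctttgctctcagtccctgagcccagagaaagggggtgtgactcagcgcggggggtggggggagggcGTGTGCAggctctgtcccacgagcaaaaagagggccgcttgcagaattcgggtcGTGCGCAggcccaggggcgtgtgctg

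The Mt1 promoter held 3 such matches, starting at positions -23, 3 and 21 from the RefSeq start, all in the direction of transcription. The Mt2 promoter held 4, at -223 and -128 on the plus strand and at -50 and 5 on the minus strand. Over the full 300-base windows (250 bases before to 50 after the start) Slc30a1 held 2 matches and Mtf1 held 0. Of 32851 promoter windows of that length in RefSeq, 25.7% held at least 1 match, 7.11% at least 2, 1.97% at least 3 and 0.517% at least 4. The RefSeq starts were 94179089 for Mt1 and 94172618 for Mt2, where GENCODE M21 has 94179082 and 94172664. The printed Mt2 stretch, which ends at 94172647, thus ends before the GENCODE start of Mt2. Only 1 window, set by 1 RefSeq start, was searched for each gene of the pair. In GENCODE M21 Mt1 has 3 transcripts and Mt2 has 2. Matches farther downstream or at other start sites were not counted, so the printed stretch need not hold the whole promoter. A match is a description of the letters only, and the promoters are those of the reference strain, not of the 4T1 genome.

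Mt1 and Mt2 were higher in every stress library than in any control library, as were 12.1% of all tested genes. Each differed by about the same amount, but neither difference passed the threshold over all genes. Mt1 stood 0.79 higher on the log2 scale and Mt2 0.79 higher, or 1.73-fold in both cases. Mtf1 showed no difference of comparable size, and Slc30a1 had the opposite sign. Library values are listed for replicates 1, 2 and 3 in turn. All are the authors' deposited log2 values, whose scale is normalized and shrunken at low expression, and levels of different genes are not compared because the values are not per length.

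Mt1 had log2 values of 10.07, 10.57 and 10.42 in the control libraries and of 10.84, 10.97 and 11.62 in the stress libraries. The groups did not overlap, and stress replicate 3 was the highest and control replicate 1 the lowest library. The control mean was 10.35 ± 0.25 (SD, n = 3) and the stress mean 11.14 ± 0.42. The difference of 0.79 ± 0.22 (SE; 95% interval of this gene alone 0.27 to 1.31) had a limma adjusted p of 0.165.

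Mt2 had log2 values of 10.12, 10.72 and 10.75 in the control libraries and of 11.03, 11.05 and 11.89 in the stress libraries. Again no control library reached any stress library, and the same libraries were lowest and highest. The means were 10.53 ± 0.36 (SD, n = 3) and 11.32 ± 0.49, and the difference of 0.79 ± 0.27 (SE; interval 0.15 to 1.44) had a limma adjusted p of 0.218.

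Among the 14098 tested genes, Mt2 and Mt1 ranked 17 and 18 by the size of the upward difference, while by p-value they ranked 1484 and 778. The spread between libraries of the same group was large for both: the 3 stress libraries ranged from 10.84 to 11.62 for Mt1 and from 11.03 to 11.89 for Mt2. Without stress replicate 3 the difference was 0.55 for Mt1 (adjusted p = 0.239) and 0.51 for Mt2 (adjusted p = 0.350). With 3 libraries against 3, the exact two-sided permutation test gave p = 0.1 for each, the smallest value this design allows.

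Mt1 and Mt2 had similar patterns over the 6 libraries, group difference included. They did not match at every step: Mt1 was lower in control replicate 3 than in control replicate 2, and Mt2 was not. Their log2 ratio, Mt1 minus Mt2, was -0.04, -0.16 and -0.33 in the control libraries and -0.19, -0.08 and -0.26 in the stress libraries. The ratio does not depend on scaling between libraries, and its groups overlapped fully: the control mean was -0.18 ± 0.15 (SD, n = 3) and the stress mean -0.18 ± 0.09, with an exact two-sided permutation p of 1.

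**Figure D1:**
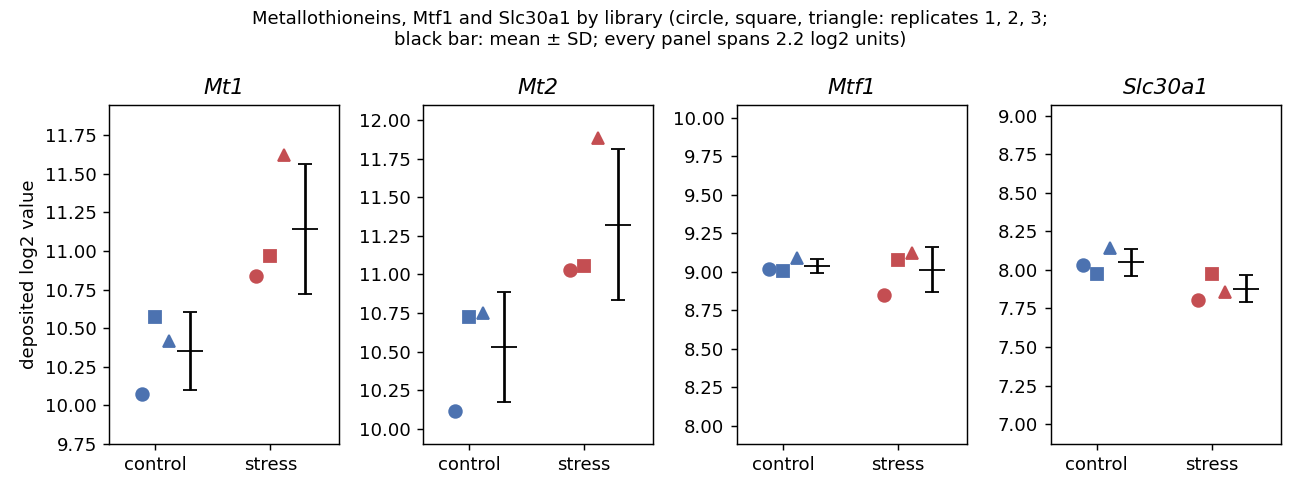
Deposited log2 values (y axis) of Mt1, Mt2, Mtf1 and Slc30a1 in the 3 control and the 3 stress libraries, with the mean and SD of each group in black; each panel spans the same number of log2 units. Mt1 and Mt2 are higher in all 3 stress libraries, with stress replicate 3 at 11.62 and 11.89, while the groups of Mtf1 and Slc30a1 overlap.

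Mtf1, the zinc sensor, had log2 values of 9.021, 9.002 and 9.089 in the control libraries and of 8.846, 9.074 and 9.122 in the stress libraries. The stress libraries lay on both sides of the controls. The difference was -0.02 ± 0.08 (SE; interval -0.22 to 0.17, limma adjusted p = 0.911), so the interval holds no change as large as that of the metallothioneins in either direction. Its sign turned without control replicate 3 (0.0025) and without stress replicate 1 (0.06).

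Slc30a1, the exporter that MTF-1 also controls, had log2 values of 8.03, 7.97 and 8.14 in the control libraries and of 7.80, 7.97 and 7.86 in the stress libraries. Control replicate 2 (7.9734) and stress replicate 2 (7.9741) met almost exactly, so the groups overlapped at that single point. The means were 8.05 ± 0.09 (SD, n = 3) and 7.88 ± 0.09, a difference of -0.17 ± 0.07 (SE; interval -0.35 to 0.005, limma adjusted p = 0.298). The point estimates of Mt1 and of Slc30a1 thus had opposite signs; the difference between the genes was not tested.

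None of the 4 genes was called at an adjusted p under 0.05, where 0.0355% of the 14098 genes were called (3 up, 2 down). At an unadjusted p under 0.05, 2 of the 4 were higher and 0 lower, against 8.26% (higher) and 9.15% (lower) of all tested genes. Control and stress libraries were fully apart for 2 of the 4 genes, both higher in stress, against 12.1% of all tested genes higher and 12.3% lower. The median difference over all genes was 0.0014.

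Reads of Mt2 may be shared with another gene. Of the 573 distinct 31-base stretches in the Mt2 transcripts of GENCODE M21, 58.1% also occur, on either strand, in the transcript of another gene, and 330 of them in Gm45774, an annotated antisense transcript (chromosome 8, 94170748 to 94173412, minus strand). The mRNA table has no row under the name Gm45774. The protocols do not say whether strand was kept, so reads from the shared stretches cannot be assigned to Mt2 or to Gm45774. Mt1 shared 0 of its 1273 stretches with any other gene, and Mt1 and Mt2 shared 0 with each other. For Mtf1 and Slc30a1 the shared part was 7.77% and 8.38%.

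The metallothionein cluster holds a further pair of genes with restricted expression. Mt3, best known from brain, had low log2 values of 1.29, 1.31 and 1.32 in the control libraries and 1.28, 1.29 and 1.27 in the stress libraries. Mt4, known from stratified epithelia, was listed at 0 in all libraries. Neither entered the test.

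Of the protein-coding genes beside the cluster, 4 are given here. Bbs2, a component of the BBSome of cilia whose start lies 80.2 kb upstream of that of Mt1, had log2 values of 7.51, 7.51 and 7.48 in the control libraries and 7.87, 7.82 and 7.83 in the stress libraries (0.34 ± 0.06 higher (SE), limma adjusted p = 0.0947). Nup93, a nuclear pore scaffold protein whose start lies 35.5 kb downstream, had 10.25, 10.38 and 10.26 in control and 9.93, 9.97 and 9.92 in stress (-0.35 ± 0.05 (SE), adjusted p = 0.0851). Both pairs of groups were clearly apart and tightly replicated, yet neither gene passed the threshold. The genes farther upstream showed small differences: Ogfod1 -0.12 (adjusted p = 0.322), again without overlap of the groups, and Nudt21 0.05 (adjusted p = 0.694). Groups were thus apart in 1 of the 4 genes with stress higher and in 2 with stress lower, against 12.1% and 12.3% of all tested genes. None of these 4 genes had a difference as large as that of Mt1 and Mt2; the contrast between genes was not tested.

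**Figure D2:**
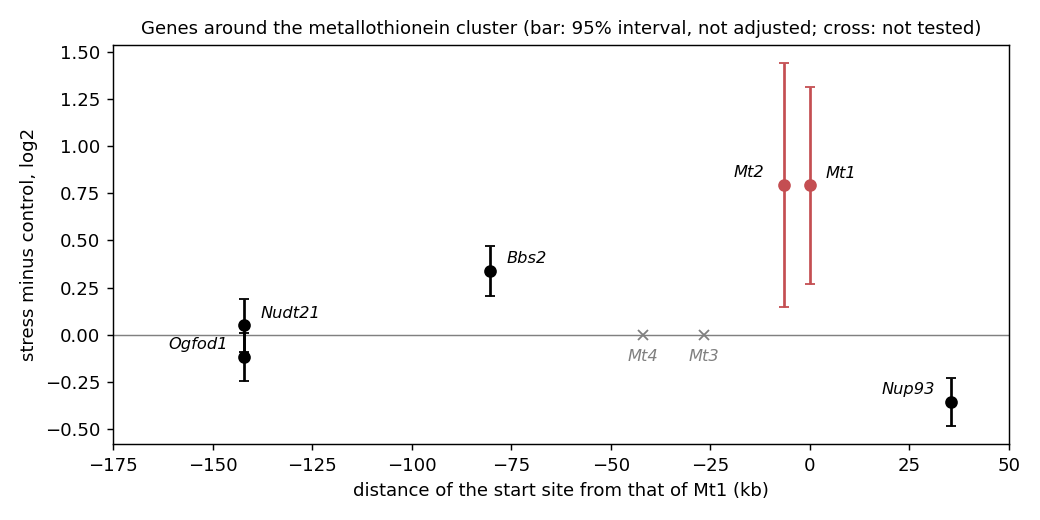
Stress minus control on the log2 scale (y axis, with the 95% interval of each gene) against the distance of each start site from that of Mt1 in kb (x axis). Mt1 and Mt2 (red) stand at 0.79, Bbs2 at 0.34 and Nup93 at -0.35; crosses mark Mt3 and Mt4, which were not tested.

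The other zinc transporters showed small differences. ZnT proteins of the SLC30 family move zinc out of the cytosol, and ZIP proteins of the SLC39 family move it in. Of the 9 SLC30 genes besides Slc30a1, 5 were tested, 2 higher and 3 lower, with 0 called, and at an unadjusted p under 0.05 there was 1 higher and 0 lower, against 8.26% and 9.15% of all tested genes. Their median difference was -0.03, which turned to 0.0057 after quantile normalization; leaving out stress replicate 1 gave -0.06, and leaving out stress replicate 2 gave -0.0018. Slc30a4, which loads zinc into vesicles and into milk, had 11.08, 11.13 and 11.21 in the control libraries and 11.30, 11.36 and 11.54 in the stress libraries, so its groups did not overlap (0.26 ± 0.07 higher (SE), limma adjusted p = 0.166). Slc30a7, a Golgi transporter, stood at -0.09 (adjusted p = 0.346), also without overlap of the groups, and Slc30a9 at 0.11 (adjusted p = 0.454). Groups were thus apart in 1 gene higher and 1 lower, against 12.1% and 12.3% of all tested genes.

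Of the 14 SLC39 importers 11 were tested, and 9 of them were lower and 2 higher, with a median difference of -0.10 against 0.0014 over all genes, of which 50.6% were higher. Limma called 0 of them, and at an unadjusted p under 0.05 there were 3 lower and 0 higher, against 9.15% and 8.26% of all tested genes. These were Slc39a9 (-0.18, adjusted p = 0.208), Slc39a7, which releases zinc from the endoplasmic reticulum (-0.12, adjusted p = 0.250), and Slc39a11 (-0.19, adjusted p = 0.258). In each of the 3 all stress libraries lay below all controls, as in 12.3% of all tested genes. Slc39a7, for example, had 10.99, 10.99 and 11.05 in the control libraries and 10.87, 10.89 and 10.92 in the stress libraries. The median shrank to -0.03 without the filter on low values, to -0.04 with muscle markers as a covariate and to -0.06 without control replicate 2. Slc39a14, the importer that IL-6 induces in liver and the one of the 11 with the largest upward difference, was named after its values were seen; it stood 0.20 ± 0.10 (SE) higher with overlapping groups (adjusted p = 0.370).

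**Figure D3:**
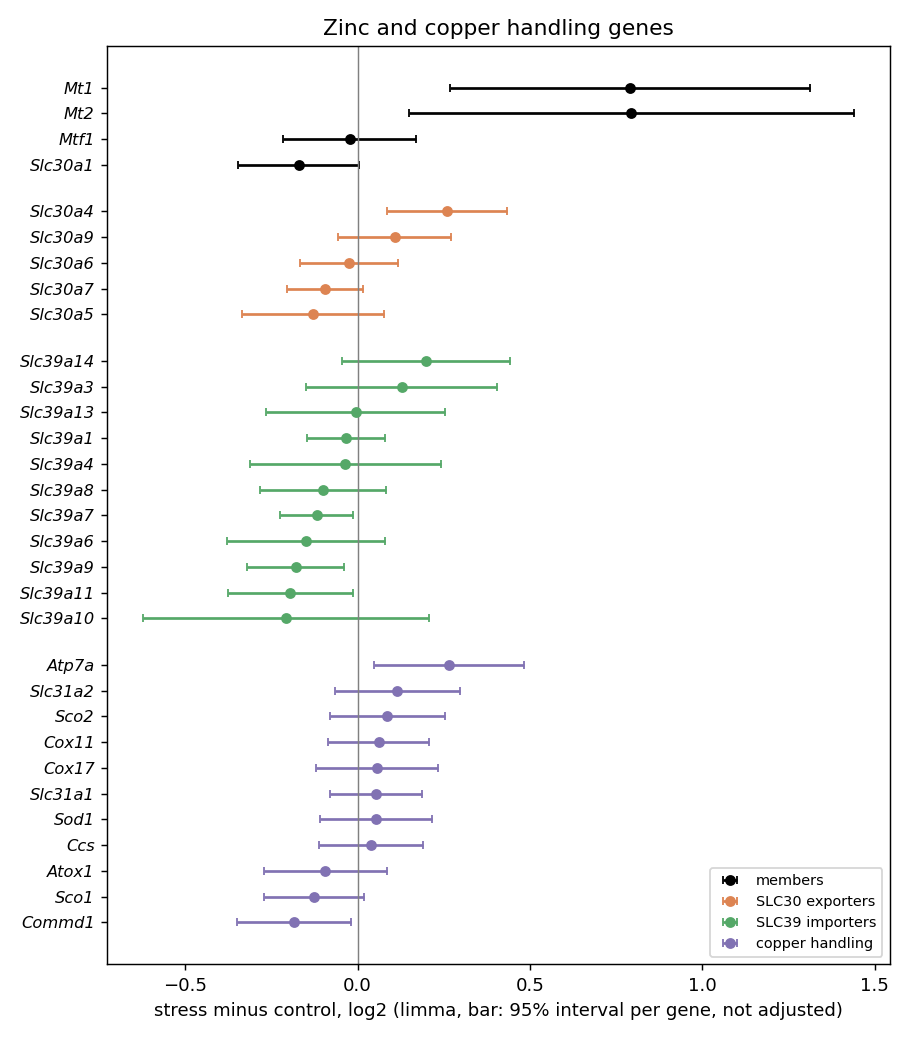
Stress minus control on the log2 scale (x axis) for the 4 genes, the tested SLC30 and SLC39 transporters and the tested copper-handling genes, with the 95% interval of each gene, not adjusted. Mt1 and Mt2 lie at 0.79, and every other gene lies between -0.21 and 0.27.

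Other genes reported to respond to MTF-1 were split. Of the 8 tested, 4 were higher and 4 lower, with a median difference of -0.0087. The list was not sorted by the direction of the reported response, so neither the split nor the median measures MTF-1 activity. It also shares 1 gene with the SLC39 list. The sign of that median was not stable: it was -0.06 without stress replicate 3, 0.0021 to 0.02 without control replicate 2 or 3 or stress replicate 1 or 2, and 0.03 with neutrophil markers as a covariate. Limma called 0 of the 8, and at an unadjusted p under 0.05 there was 1 higher and 0 lower, a share near that of all tested genes (8.26% higher, 9.15% lower). Ndrg1, which hypoxia also induces, had 13.10, 13.49 and 12.87 in the control libraries and 13.70, 13.73 and 14.36 in the stress libraries. No control library reached a stress library, as in 12.1% of all tested genes. The difference of 0.78 ± 0.22 (SE) was close in size to that of Mt1 (adjusted p = 0.165). Pgf, the angiogenic placental growth factor, stood 0.67 ± 0.30 (SE) higher with overlapping groups (adjusted p = 0.316), and Selenoh, a nuclear selenoprotein, at -0.17 (adjusted p = 0.305).

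Copper handling genes, fixed because metallothioneins bind copper too, showed small differences: of 11 tested, 8 were higher and 3 lower, with a median of 0.05, which turned to -0.03 with neutrophil markers as a covariate and was 0.0085 with muscle markers, 0.08 without stress replicate 2 and 0.02 without stress replicate 3. Limma called 0, and at an unadjusted p under 0.05 there was 1 higher and 1 lower, shares near those of all tested genes (8.26% and 9.15%). Atp7a, a copper exporter, stood 0.27 ± 0.09 (SE) higher without overlap of the groups (adjusted p = 0.217). Commd1, which takes part in copper export, stood at -0.19 (adjusted p = 0.248), and Sco1, which delivers copper to cytochrome c oxidase, at -0.13 (adjusted p = 0.345). The groups did not overlap for Commd1 and Sco1 either, with stress lower. In this list 1 gene was thus apart with stress higher and 2 with stress lower, against 12.1% and 12.3% of all tested genes.

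Transcription factors that can induce Mt1 and Mt2 were compared next. Of the 6 tested, 5 were higher and 1 lower, with a median of 0.12, and limma called 0; at an unadjusted p under 0.05 there were 3 higher and 0 lower, against 8.26% and 9.15% of all tested genes. Stat3 stood 0.25 higher (adjusted p = 0.138), the glucocorticoid receptor gene Nr3c1 0.15 higher (adjusted p = 0.234) and Nfe2l2, which encodes the oxidative stress factor NRF2, 0.11 higher (adjusted p = 0.281). Each of these 3 estimates was below those of Mt1 and Mt2, and this contrast between genes was not tested. Transcript levels do not measure the activity of these factors. Of the glucocorticoid-induced genes, 7 of 8 were tested and 7 were higher, where 50.6% of all tested genes were higher. The list was chosen with earlier results of these data known, so its counts are no independent evidence. Its median was 0.41, and Sgk1 had the smallest difference (0.05, limma adjusted p = 0.817). Limma called 0, and 6 had an unadjusted p under 0.05, all higher, against 8.26% of all tested genes. Klf9 (0.75 higher, adjusted p = 0.120), Ddit4 (0.45 higher, adjusted p = 0.120) and Fkbp5 (0.23 higher, adjusted p = 0.147) had the smallest p-values of that list, and the list median was 0.25 with neutrophil markers as a covariate and 0.26 without control replicate 1.

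The genes most like the members were taken by the root mean square difference between mean-centred log2 values over the 6 libraries, with the group difference included. For Mt1 they were Eno2, a glycolytic enolase (0.08 log2 units), Lgals3, the lectin galectin 3 (0.11), Ppp1r15a, which encodes GADD34 of the integrated stress response (0.12), Nr1d1, the clock repressor REV-ERB alpha (0.13), and Adm, the vasodilator peptide adrenomedullin (0.14). Mt2 lay at 0.10 from Mt1 and ranked 2 among the 14097 other genes, behind Eno2, and for Mt2 the nearest gene was Mt1. After the other members, the genes most like Mt2 were Nos2, the inducible nitric oxide synthase (0.14), Hdc, which makes histamine (0.16), Eno2 (0.17), Nr1d1 (0.17) and Lgals3 (0.18). Eno2 had 8.89, 9.37 and 9.12 in the control libraries and 9.66, 9.92 and 10.34 in the stress libraries, with the same lowest and highest libraries as Mt1 (0.85 ± 0.19 higher (SE), limma adjusted p = 0.120). The genes nearest to Mtf1 were Med27, Trim3 and Cep164 (0.02 each), and those nearest to Slc30a1 were Zfp276 (0.02), Zdhhc24 and Cdk2ap1 (0.03 each). These likenesses rest on 6 libraries and were picked as the closest of all genes tested.

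Markers of some other cell types leaned to one direction in these libraries, but limma called 0 genes of any marker list. Over all tested genes 50.6% were higher. Of 6 tested neutrophil markers 5 were higher in stress, and their summed level, as a log2 value, ran from 10.51 to 10.70 in control and from 10.997 to 11.748 in stress, highest in stress replicate 3, where Mt1 and Mt2 were highest too. Ly6g and Camp lay below the filter on low values: Ly6g, a defining marker of mouse neutrophils, had log2 values of -0.10 to -0.05 over the 6 libraries and Camp of 1.29 to 1.33. All 12 muscle markers were lower, with summed levels of 12.47 to 14.02 in control and 11.47 to 12.90 in stress, lowest in stress replicate 3. Fibroblast markers were lower in 7 of 8 (median -0.49) and endothelial markers in 6 of 6 (median -0.40). Of 6 adipocyte markers 2 were tested, Fabp4 (-0.67) and Lpl (-0.75), both lower without overlap of the groups. Tumour epithelial markers, higher in 4 of 6, averaged 11.85 to 12.04 in control and 11.80 to 12.05 in stress. Of that list only Krt7 had groups that did not overlap, lower in stress (-0.36, limma adjusted p = 0.221). Groups were apart with stress lower in 12.3% of all tested genes. Macrophage markers (lower in 4 of 6, median -0.05) and T and NK cell markers (lower in 5 of 6, median -0.07) showed small differences. With the mean of the neutrophil markers as a covariate the difference was 0.41 for Mt1 (adjusted p = 0.762) and 0.27 for Mt2 (adjusted p = 0.876), and with the mean of the muscle markers it was 0.68 (adjusted p = 0.574) and 0.72 (adjusted p = 0.616). The neutrophil mean itself was fully apart between the groups (7.425 to 7.624 in control, 7.723 to 8.441 in stress). With 6 libraries its fit therefore cannot tell neutrophil level and stress apart. In these bulk samples, more cells of a type and more RNA per cell cannot be told apart, and which cells of the tumours held the Mt1 and Mt2 transcripts was not tested.

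**Figure D4:**
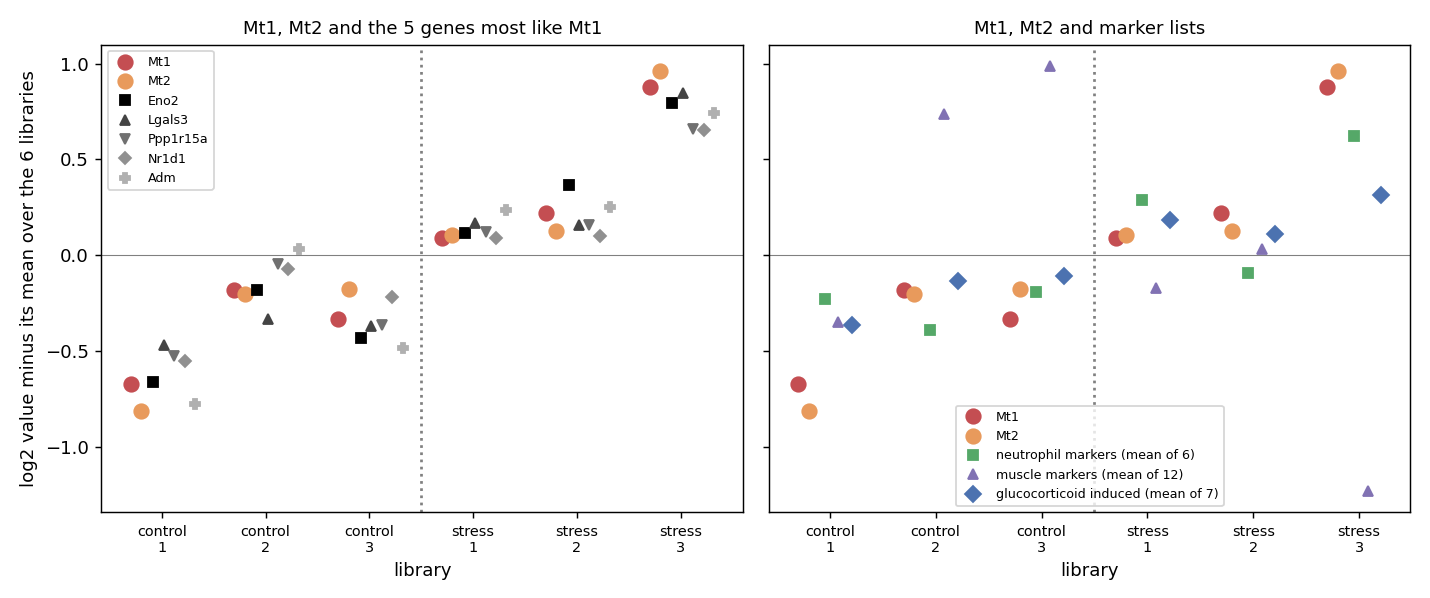
Log2 value minus its mean over the 6 libraries (y axis) in each library (x axis) for Mt1 and Mt2 with the 5 genes most like Mt1 (left) and with the mean of the neutrophil, muscle and glucocorticoid-induced lists (right). Stress replicate 3 is the highest library for Mt1, Mt2 and the neutrophil markers and the lowest for the muscle markers.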

How the data were processed

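The deposited mRNA table is named raw counts, but it holds log2 values normalized by the authors. They have decimals, lie between -1.97 and 17.85, and a gene at 0 in any library is at 0 in all 6. The log base was taken as 2, and the depth is unknown. Per the submitters' processing notes, kallisto 0.46.1 and bcl2fastq were used with mm10; the sources used here do not give the later transform. Its values were compressed at low expression (median range over libraries 0.0773 at means of 2 to 3, 0.262 at 9 to 10), so small differences of weak genes are understated.

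Groups and replicate numbers came from the titles. Rows at 0 in all libraries (12658) and 26 rows named by a date were left out. Limma 3.58.1 in R 4.3.3 (lmFit, eBayes with variance trend and robust estimation, checked on simulated data) compared stress with control over the 14098 genes whose mean reached 4 on the log2 scale, two-sided, with Benjamini-Hochberg adjustment and a threshold of 0.05. Intervals are at 95% and not adjusted. The members and gene lists were chosen with earlier results of these data known. Named were the 4 genes, the measured cluster genes and neighbours (1 neighbour is not reported here), in each list the called genes (where none was called, the 3 of smallest p), Slc39a14 beyond the rule, and the 5 (Mt1, Mt2) or 3 genes most alike. Alternatives were other filters, scalings, variance models, covariates, a replicate block and leaving out each library.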

Additional observations from a re-analysis of the deposited data

How the results depend on the processing

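Mt1, Mt2 and Slc30a1 kept their sign and stayed short of the threshold under all 15 alternatives: the difference ran from 0.415 to 0.943 for Mt1 (limma adjusted p from 0.155 to 0.762), from 0.274 to 0.942 for Mt2 (0.191 to 0.876) and from -0.218 to -0.117 for Slc30a1 (0.257 to 0.814). Without single libraries Mtf1 ran from -0.0774 to 0.0605, turning to 0.00246 without control replicate 3 and to 0.0605 without stress replicate 1 (adjusted p over its alternatives 0.690 to 0.996). The Mt1 to Mt2 log2 ratio differed by -0.00338 between groups and ran from -0.0813 to 0.0644 without single libraries; it was 0.0644 without control replicate 1, 0.00674 without control replicate 2, 0.00181 without stress replicate 1 and 0.0394 without stress replicate 3.

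Over all genes, 3 were called higher and 2 lower; without single libraries 0 to 4 higher (4 without control replicate 2) and 0 to 2 lower were called. Muscle or neutrophil markers as a covariate gave 0 in both directions, a filter at a mean of 6 gave 7 lower, and quantile normalization 5 lower. Libraries of equal replicate number did not deviate together more than others. The correlations of deviations across genes were -0.079, 0.0815 and -0.0183, against -0.136 to 0.155 for unequal numbers. The labels do not say whether equal numbers were handled together, and these correlations cannot settle it. With the replicate block 0 genes were called in either direction. No gene of a zinc, copper, regulator or neighbour list was called under any alternative.

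List medians moved beyond the spread between libraries as follows. Quantile normalization gave 0.00572 for SLC30 exporters and -0.0733 for SLC39 importers. The neutrophil covariate gave -0.0508 for exporters, -0.0269 for copper handling, 0.162 for regulators and 0.25 for glucocorticoid-induced genes, and the muscle covariate -0.0429 for importers. Without the filter on low values importers were at -0.0345. Without single libraries exporters ran from -0.0597 to -0.00176, importers from -0.130 to -0.0554 and glucocorticoid-induced genes from 0.265 to 0.530. The number of libraries, 3 per group, limits the precision of every difference.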
